A study of Danio rerio with 5 samples.

Results

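The members were all genes of the deposited tables whose name begins with timm or tomm and a digit (21 import genes) or with slc25a and a digit (51 carrier genes), together 72 of the 31540 genes. They encode the TOM and TIM machinery, which imports proteins into mitochondria, and the SLC25 carriers of the inner membrane. Gene expression had been measured by RNA sequencing of stranded mRNA libraries from zebrafish caudal fin regenerates, 3 libraries labelled 24h and 2 labelled Control. The series design names 1 and 3 days after amputation as the times compared, and neither the nature of the Control fins is stated in the labels, nor strain, age, sex or a number of pooled animals. Values are therefore read only as 24h against Control, and p-values measure the spread between these libraries, which may be technical. The import and carrier genes were put forward with the 24h against Control results known, so their fold changes and calls from total gene reads are given as a description of the members and carry no test of the set.

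Nearly all proteins of a mitochondrion are encoded in the nucleus, made in the cytosol and imported through protein complexes in the organelle's membranes. In the outer membrane the TOM complex is the common entry gate, and in the inner membrane the TIM23 complex takes up proteins with a cleavable presequence, while the small Tim proteins escort hydrophobic proteins across the space between the membranes. The largest class of such hydrophobic cargo is the SLC25 family of carriers, which move ADP, ATP, phosphate, carboxylates, amino acids, cofactors and metals through the inner membrane. Import genes and carrier genes were described side by side but counted apart.

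The libraries held 14958600 to 22341452 reads in genes, of which the import genes took 0.0559% to 0.0900% and the carrier genes 0.275% to 0.341%. Epidermal markers, checked for the labelled tissue, were all expressed, with a summed level of 43950 to 56648 CPM at 24h against 56204 to 62819 CPM in Control. CPM are reads scaled to a common library size with TMM factors. They compare one gene between libraries, and TPM, which the authors scaled for exon length, are used to compare genes with each other.

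Most import genes were called higher in the 24h libraries, and most carrier genes were not called in either direction. Of the 21 import genes, all of which passed the filter on low counts, 15 were higher and none lower in edgeR's quasi-likelihood test over all genes, at an adjusted p under 0.05. Of all 19034 tested genes, 9.43% were called higher and 14.8% lower, and nothing is read from the comparison since the same contrast chose the set. Without the adjustment 17 import genes were higher and 0 lower at p under 0.05, and DESeq2 called 15 higher and 0 lower. Of all tested genes DESeq2 called 11.3% higher and 15.5% lower. The share of all tested genes at unadjusted p under 0.05 was not counted, so nothing is read from such counts here or below. Of the 44 carrier genes that passed the filter, 3 were called higher and 2 lower, and 39 were not called. The median log2 fold change, 24h minus Control, was 0.57 over the import genes and 0.13 over the tested carriers, beside -0.0043 over all tested genes. Whether both families differ was not tested.

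The 15 called import genes differed by log2 fold changes of 0.47 to 1.298, which is 1.38-fold to 2.46-fold, and only timm10b exceeded 2-fold. All 24h libraries lay above both Control libraries for 17 import genes, against 27.7% of all tested genes, and for 15 carriers. The opposite pattern was found for 0 import genes and 10 carriers, against 29.1% of all tested genes. Taken one at a time, the 24h libraries exceeded both Control libraries in 17, 19 and 20 of the 21 import genes, with median log2 ratios to the Control mean of 0.59, 0.63 and 0.42. Among the 44 tested carriers the same libraries exceeded both Control libraries in 21, 20 and 21 genes and fell below both in 13, 15 and 12. The share over all tested genes was not counted for single libraries, so nothing is read from these counts.

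Summed over the 21 import genes, the level was 805, 851 and 747 CPM at 24h against 560.0 and 569 CPM in Control. The sum over the 51 carriers was 3672, 3107 and 2908 CPM at 24h against 2739 and 2807 CPM in Control. The groups did not overlap for either sum, and 24h replicate 3 was nearest to the Control libraries in both. Most of the carrier sum came from the ADP/ATP and phosphate carriers, at 2536, 2096 and 1958 CPM against 1797 and 1791 CPM, none of them called. No other carrier class had a sum above both Control libraries in every 24h library. The sum of the uncoupling-protein relatives and others lay below them, at 67.2, 67.3 and 52.8 CPM against 80.8 and 84.2 CPM. Of its 7 genes 4 had a positive and 3 a negative log2 fold change. The negative ones were slc25a43 (mean 16.6 CPM at 24h against 34.1 CPM in Control), slc25a48 (1.89 against 8.68) and slc25a47a (3.05 against 6.25). The uncoupling-protein relatives slc25a14 (25.5 against 21.5) and slc25a27 (1.08 against 0.970) were not lower.

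**Figure D1:**
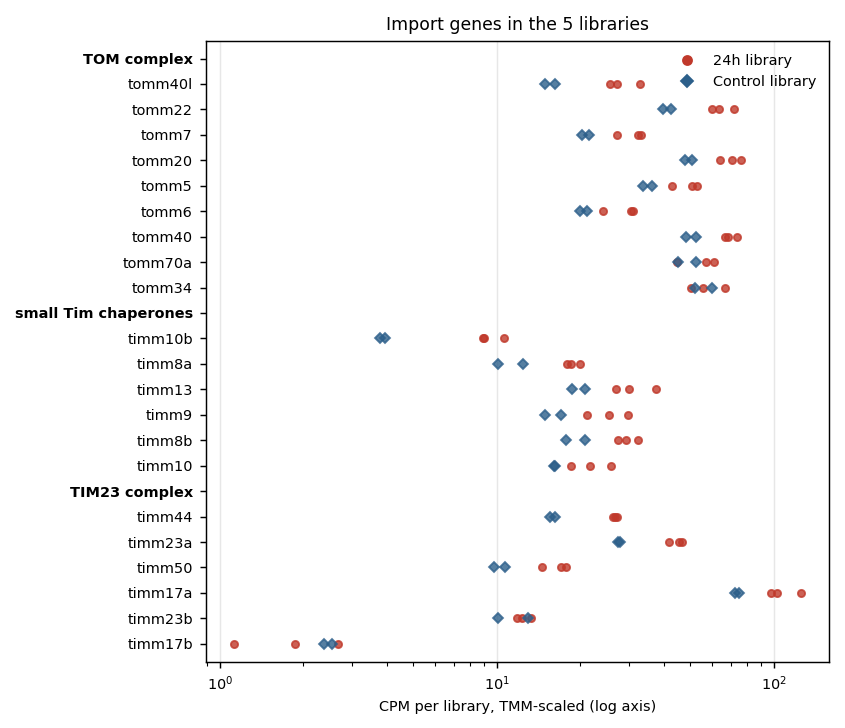
CPM of the 21 import genes in each library on a log axis, grouped by complex; circles are the 3 24h libraries and diamonds the 2 Control libraries. In 17 genes all circles lie to the right of both diamonds, and tomm70a, tomm34, timm23b and timm17b are the genes where they mix.

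The TOM complex is named first because most imported proteins pass it. Of its 9 genes by name, 6 were called higher and 0 lower (7 and 0 at an unadjusted p under 0.05 in edgeR, 6 and 0 in DESeq2). Of all tested genes 9.43% were called higher and 14.8% lower. Nothing is read from the counts by complex, since the same contrast chose the set. The receptor gene tomm22, whose protein also holds the complex together, stood at 63.6, 71.6 and 59.9 CPM at 24h against 42.4 and 39.8 CPM in Control. The presequence receptor gene tomm20 stood at 70.6, 76.2 and 63.7 CPM at 24h against 47.8 and 50.4 CPM in Control. In both genes every 24h library was well above the Control libraries, with log2 fold changes of 0.66 ± 0.13 (SE) for tomm22 and 0.51 ± 0.13 (SE) for tomm20 and adjusted p of 0.011 and 0.028 in edgeR. A further receptor gene, tomm70a, which receives carrier precursors, was at 44.7, 56.8 and 61.0 CPM at 24h against 45.2 and 52.4 CPM in Control. Its groups overlapped, 24h replicate 1 lying below both Control libraries, and it was not called (log2 fold change 0.15 ± 0.16 (SE), edgeR adjusted p = 0.54).

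The channel gene tomm40 was at 66.7, 73.3 and 68.5 CPM at 24h against 48.3 and 52.2 CPM in Control. Its relative tomm40l, which encodes a second form of the channel, was at 27.1, 32.9 and 25.5 CPM at 24h against 16.2 and 14.9 CPM in Control. The lower-expressed of these channel genes thus had the greater difference, 0.88 ± 0.16 (SE) for tomm40l against 0.47 ± 0.12 (SE) for tomm40 on the log2 scale, and both were called higher. The difference between them was not tested.

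Small subunits that steady the channel are encoded by tomm5, tomm6 and tomm7. The gene tomm5 was at 52.8, 50.8 and 43.0 CPM at 24h against 36.3 and 33.6 CPM in Control. For tomm7 the levels were 33.3, 32.3 and 27.2 CPM at 24h against 20.2 and 21.6 CPM in Control. Both were called higher, by 0.48 and 0.57 on the log2 scale. The remaining one, tomm6, at 30.6, 31.0 and 24.2 CPM at 24h against 19.95 and 21.2 CPM in Control, also had all 24h libraries above the Control libraries but was not called (log2 fold change 0.48 ± 0.16 (SE), adjusted p = 0.066 in edgeR), and it was called without 24h replicate 3 (0.59, adjusted p = 0.026). A gene on the opposite strand overlaps each of tomm5 and tomm6. Of the reads of tomm5 and tomm6 100% were unique. Whether the counts used the strand is not given, so reads could still be split with the overlapping genes. The gene tomm34 encodes a cytosolic cochaperone and no subunit of the gate itself, and its levels of 55.6, 66.8 and 50.1 CPM at 24h against 59.9 and 52.1 CPM in Control overlapped between the groups.

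The small Tim chaperones, which form rings in the intermembrane space, had 5 of 6 genes called higher, beside 9.43% of all tested genes. The largest difference of any import gene was in timm10b, whose protein joins the TIM22 carrier translocase in human cells. It was at 8.95, 10.6 and 9.02 CPM at 24h against 3.80 and 3.96 CPM in Control, from 183, 251, 139, 72 and 60 reads. All 24h libraries were more than 2 times as high as either Control library, a log2 difference of 1.298 ± 0.21 (SE) (edgeR adjusted p = 0.0044). The gene lies on chromosome 10 from 24792764 to 24796536 (GRCz10).

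The proteins of timm9 and timm10 form the chaperone ring that carries the SLC25 precursors. For timm9 the levels were 25.4, 29.7 and 21.1 CPM at 24h against 14.9 and 17.01 CPM in Control. For timm10 they were 18.5, 25.8 and 21.7 CPM at 24h against 16.2 and 16.0 CPM in Control. The partner timm9 was called higher by 0.67 ± 0.18 (SE) and timm10 was not called, at 0.45 ± 0.18 (SE) with an adjusted p of 0.11, although its groups did not overlap either.

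A second ring, of Tim8 and Tim13, serves other inner membrane proteins. The gene timm8a, whose human counterpart is mutated in a deafness and dystonia syndrome, was at 17.9, 19.9 and 18.6 CPM at 24h against 10.1 and 12.4 CPM in Control. Its relative timm8b was at 32.4, 29.3 and 27.3 CPM at 24h against 20.8 and 17.8 CPM in Control. Both were called higher, by 0.74 and 0.62 on the log2 scale, with groups that did not overlap. The ring partner timm13 was at 30.1, 37.5 and 26.9 CPM at 24h against 18.7 and 20.8 CPM in Control, a difference of 0.68 ± 0.18 (SE). Only 48.4% of its reads were unique to it, and it overlaps tmprss9 on the opposite strand. With unique reads alone its log2 fold change was 0.58 and the call was lost (adjusted p = 0.056).

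In the TIM23 complex 4 of 6 genes were called higher, beside 9.43% of all tested genes. The channel gene timm23a was at 46.7, 45.6 and 41.9 CPM at 24h against 27.8 and 27.4 CPM in Control. The other core gene, timm17a, was at 125, 102 and 97.4 CPM at 24h against 72.6 and 74.8 CPM in Control. Both were called, by 0.70 ± 0.12 (SE) and 0.56 ± 0.15 (SE). The gene timm44, which tethers the matrix Hsp70 motor to the channel, was at 26.3, 27.2 and 26.6 CPM at 24h against 15.5 and 16.2 CPM in Control. Its 24h values lay within 1 CPM of each other, and the log2 difference was 0.75 ± 0.13 (SE) (edgeR adjusted p = 0.0068). The presequence receptor gene timm50 was at 14.6, 17.7 and 17.1 CPM at 24h against 10.7 and 9.76 CPM in Control and was called higher by 0.68 ± 0.17 (SE).

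The other 2 genes of the complex, timm17b and timm23b, are paired by name with timm17a and timm23a and were at much lower levels. The gene timm17b was at 1.12, 1.86 and 2.66 CPM at 24h against 2.53 and 2.37 CPM in Control, with overlapping groups and the only negative fold change among the import genes, -0.40 ± 0.39 (SE). For timm23b the levels were 12.4, 11.9 and 13.3 CPM at 24h against 10.1 and 12.9 CPM in Control, but 85.4% of its reads were intron reads, 26.4% were unique, and it overlaps ncoa4 and another gene model. Its value is therefore uncertain, and its sign was negative when exon reads alone were tested (-0.104).

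Levels per exon length gave the import genes a similar order in both groups at its ends and another in its middle, where tomm34 stood in place 13 at 24h and in place 9 in Control. By mean TPM the order began with tomm5, at 162 ± 12.7 TPM (SD, n = 3) at 24h against 119 ± 6.46 TPM (SD, n = 2) in Control, followed by tomm20, at 149 ± 18.7 TPM (SD, n = 3) at 24h against 107 ± 3.65 TPM (SD, n = 2) in Control, and timm17a, at 137 ± 6.07 TPM (SD, n = 3) at 24h against 95.7 ± 2.40 TPM (SD, n = 2) in Control. Those 3 held the first 3 places in both groups, while the next genes, tomm22 and tomm7, changed places, with TPM whose SDs overlapped. The last 2 places belonged to timm17b and timm23b in both groups. Mean TPM of the 21 genes ran from 3.08 to 162 at 24h.

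**Figure D2:**
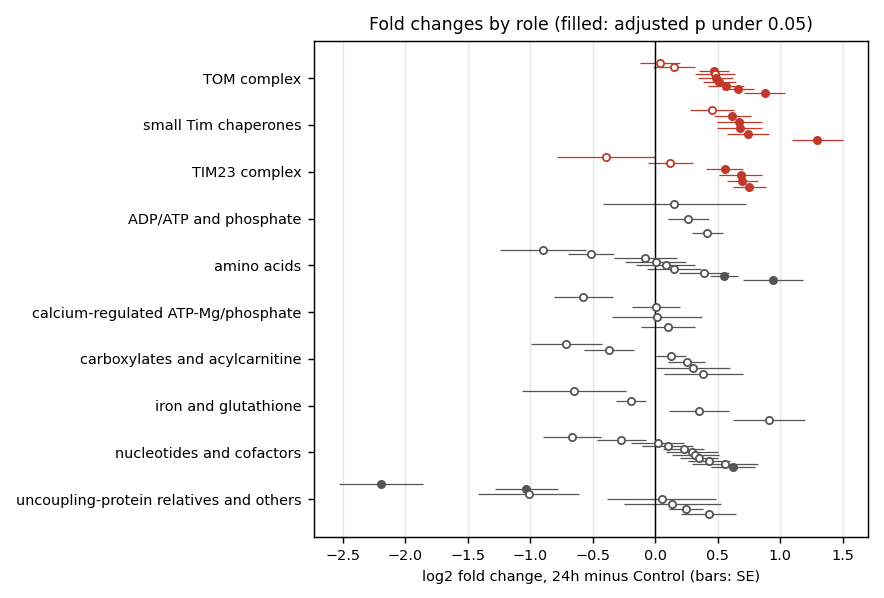
Log2 fold change, 24h minus Control, of the 65 members that passed the low-count filter, by role, with bars for the SE; filled points have an adjusted p under 0.05 in edgeR and open points do not. Import genes (red) lie to the right of 0 with 1 exception, timm17b, while the carrier classes (grey) lie on both sides.

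Carrier genes differed far more from each other in level than between the groups. The adenine nucleotide carrier gene slc25a5, whose protein exchanges cytosolic ADP for mitochondrial ATP, held 69.7% to 72.8% of all carrier TPM in every library. Its level was 2756 ± 169.5 TPM (SD, n = 3) at 24h against 2365 ± 5.49 TPM (SD, n = 2) in Control. In CPM it was at 2114, 1702 and 1587 CPM at 24h against 1497 and 1499 CPM in Control. All 24h libraries lay above the Control libraries, 24h replicate 1 by far the most, and the gene was not called (log2 fold change 0.27 ± 0.17 (SE), adjusted p = 0.28 in edgeR). It lies on chromosome 14 from 32541311 to 32543824 (GRCz10), next to another member, slc25a43, with 593 bases between them.

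The phosphate carrier gene slc25a3b, whose protein brings in the phosphate for ATP synthesis, was second at 397 ± 16.1 TPM (SD, n = 3) at 24h against 305 ± 3.61 TPM (SD, n = 2) in Control. In CPM it was at 421, 393 and 369 CPM at 24h against 299 and 292 CPM in Control. Its groups did not overlap and its adjusted p in edgeR was at the threshold, 0.0501, with a log2 fold change of 0.42 ± 0.13 (SE). It was called higher by DESeq2 (adjusted p = 0.012), with unique reads (0.0495), in limma on TPM with either pseudocount (0.026 and 0.026) and without 24h replicate 3 (0.043), with log2 fold changes between 0.36 and 0.47 over all alternatives.

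Next in level was slc25a22, a glutamate carrier gene listed as slc25a55a in the table of gene names, at 294, 285 and 229.6 CPM at 24h against 187 and 299 CPM in Control. Control replicate 2 held the highest and Control replicate 1 the lowest value, so no difference could be read from it. These 3 carriers held 82.4% to 86.0% of the carrier TPM.

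Among the members, the other genes of the ADP/ATP exchange, slc25a4 and slc25a6, were almost silent. The gene slc25a4, the form of heart and muscle in mammals, had 2, 4 and 4 reads in the 24h and 5 and 2 in the Control libraries. For slc25a6 a single read was found, in 24h replicate 2. Skeletal muscle markers were low in all libraries: 16 of 21 did not pass the filter. Of the 5 tested markers 1 was higher and 1 lower, beside 9.43% and 14.8% of all tested genes. The summed level of the muscle markers was 35.0 to 46.0 CPM at 24h against 27.9 to 37.5 CPM in Control. In TPM the sum was 3.67 to 4.19 at 24h against 4.57 to 4.85 in Control. Intron reads made up 89.6% of the reads of tnnt3b, the marker called higher, and 98.7% of those of atp2a1. The markers myhz1.3 and pvalb2 had no read. The part of the muscle markers in the level of slc25a4 was not tested. The copy slc25a3a of the phosphate carrier stood at 0.489, 0.296 and 0.714 CPM at 24h against 0.528 and 0.330 CPM in Control, with overlapping groups.

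**Figure D3:**
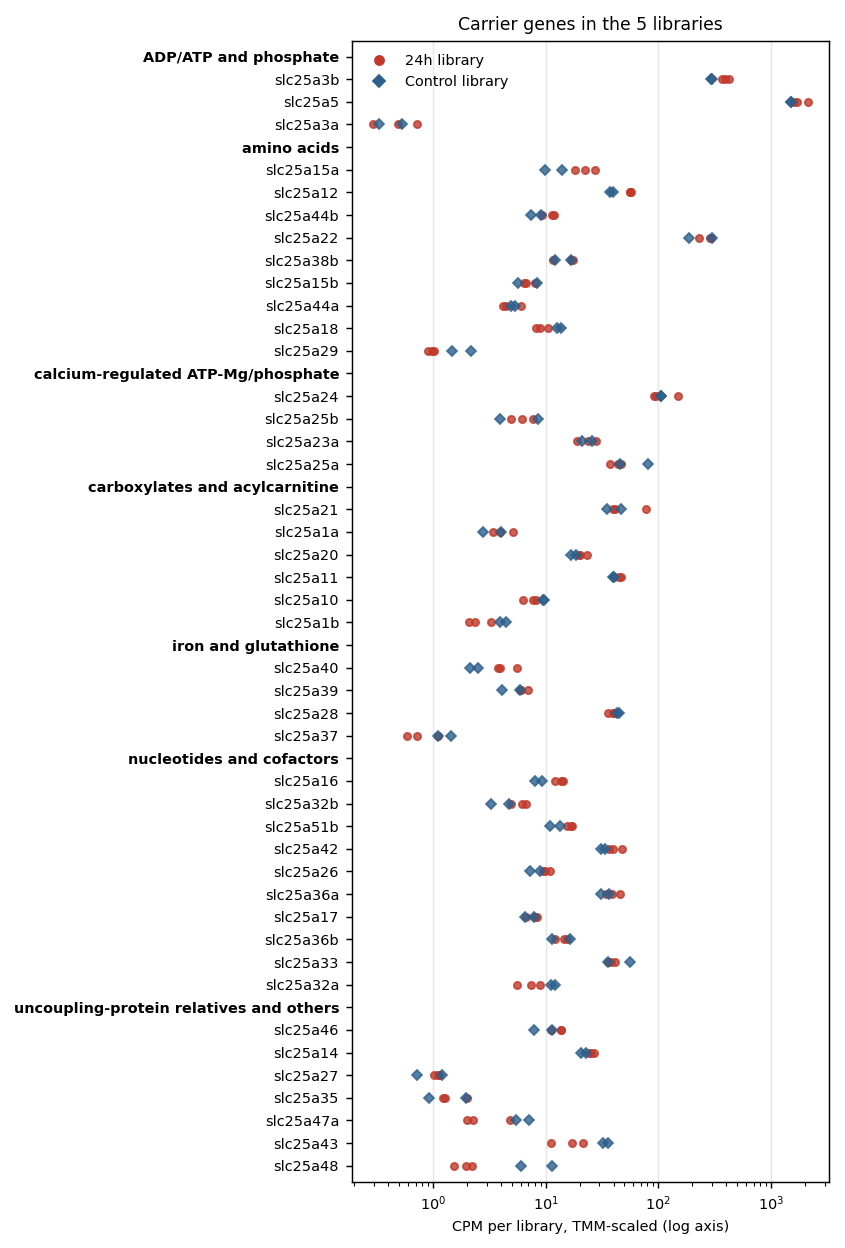
CPM in each library, on a log axis, of the carrier genes that passed the filter, apart from 1 that is not reported here, grouped by what they carry; circles are 24h and diamonds Control libraries. The carriers span from 0.296 CPM for slc25a3a to 2114 CPM for slc25a5, and all 24h libraries lie above both Control libraries in 15 genes and below both in 10.

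The 3 carriers called higher were slc25a15a, slc25a16 and slc25a12. The aspartate/glutamate carrier gene slc25a12, part of the malate-aspartate shuttle that passes reducing equivalents into mitochondria, was at 55.8, 56.0 and 57.1 CPM at 24h against 37.5 and 39.3 CPM in Control. Its 24h values were nearly equal and all above the Control values, a log2 difference of 0.55 ± 0.11 (SE) (edgeR adjusted p = 0.013). The related gene slc25a13 had 3, 8 and 13 reads in the 24h and 4 and 5 in the Control libraries, did not pass the filter and overlaps pdk4, so slc25a12 supplied nearly all reads of this carrier type. The ornithine carrier gene slc25a15a, of the urea cycle and arginine metabolism, was at 27.6, 18.3 and 22.3 CPM at 24h against 9.82 and 13.9 CPM in Control. It was called higher by 0.94 ± 0.24 (SE), with 36.5% of its reads in introns, and with exon reads its log2 fold change was 1.27. The gene slc25a16, linked in yeast and human to coenzyme A in the matrix, was at 12.03, 14.2 and 13.8 CPM at 24h against 8.02 and 9.30 CPM in Control and higher by 0.62 ± 0.18 (SE) (adjusted p = 0.043).

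The 2 carriers called lower were slc25a48 and slc25a43, of which slc25a48 had the largest difference of any called member and slc25a43 the third largest, after timm10b. The gene slc25a48, which mammalian mitochondria need for choline uptake, was at 2.20, 1.52 and 1.95 CPM at 24h against 6.02 and 11.3 CPM in Control. Both Control libraries were above all 24h libraries, and they differed more from each other than the lower of them did from the highest 24h library. Its log2 fold change was -2.19 ± 0.33 (SE) (edgeR adjusted p = 0.0035). It was the only member that was called under every alternative, with log2 fold changes from -2.59 to -1.66. It lies on chromosome 14 from 25293358 to 25301757 (GRCz10). The gene slc25a43, a carrier without a known substrate, was at 21.5, 17.2 and 11.2 CPM at 24h against 35.8 and 32.4 CPM in Control, and its log2 fold change was -1.03 ± 0.25 (SE). Of its reads 76.6% were unique, and it overlaps a gene model on the opposite strand.

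Calcium-regulated carriers of ATP-Mg and phosphate, which adjust the adenine nucleotide pool of the matrix, gave no call in either direction among the 4 of 6 tested in edgeR (0 higher and 1 lower at an unadjusted p under 0.05, 0 and 0 in DESeq2). The most abundant, slc25a24, was at 148, 96.1 and 92.0 CPM at 24h against 105 and 105 CPM in Control. In slc25a25a, at 44.2, 36.9 and 46.9 CPM at 24h against 80.9 and 45.9 CPM in Control, Control replicate 1 stood apart from the other 4 libraries. Its log2 fold change of -0.57 became -0.91 with a call (adjusted p = 0.024) without Control replicate 2 and -0.109 without Control replicate 1. The other tested genes of this class, slc25a23a and slc25a25b, had log2 fold changes near 0 (0.01 ± 0.19 (SE) and 0.01 ± 0.36 (SE)).

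Carriers of carboxylates and acylcarnitine also gave no call in edgeR (0 higher and 1 lower at an unadjusted p under 0.05, 0 and 0 in DESeq2). The oxoglutarate carrier gene slc25a11 was at 46.4, 44.4 and 40.3 CPM at 24h against 39.9 and 40.2 CPM in Control. The carnitine-acylcarnitine carrier gene slc25a20, which admits fatty acids for oxidation, was at 19.9, 23.2 and 20.1 CPM at 24h against 18.6 and 16.8 CPM in Control. Both had all 24h libraries above the Control libraries by small margins, 0.13 and 0.25 on the log2 scale. The citrate carrier gene slc25a1b ran the other way, at 2.10, 3.26 and 2.34 CPM at 24h against 4.49 and 3.96 CPM in Control, with a log2 fold change of -0.71 ± 0.29 (SE) and an adjusted p of 0.11. For the oxodicarboxylate carrier gene slc25a21, 86.1% of the reads were intron reads and 29.5% were unique, and its value is uncertain. The citrate carrier copy slc25a1a and the dicarboxylate carrier gene slc25a10 were not called (0.30 and -0.37).

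Among the other amino acid carriers, the copies slc25a44a and slc25a44b, of branched-chain amino acid uptake in mammals, and slc25a38b, of glycine uptake for haem synthesis, were not called, at -0.08, 0.39 and 0.08. The level of slc25a38b was 11.6, 16.9 and 17.3 CPM at 24h against 12.2 and 16.7 CPM in Control. Its copy slc25a38a had 8, 3 and 2 reads in the 24h and 2 and 1 in the Control libraries and did not pass the filter. The groups of slc25a38b overlapped. The glutamate carrier gene slc25a18, at 8.90, 8.17 and 10.5 CPM at 24h against 13.6 and 12.6 CPM in Control, lay lower in every 24h library and was not called (adjusted p = 0.083). So did slc25a29, of basic amino acids, at 0.978, 1.02 and 0.909 CPM at 24h against 1.48 and 2.18 CPM in Control (adjusted p = 0.10), and the second ornithine carrier copy slc25a15b had overlapping groups (0.00 ± 0.24 (SE)).

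Of the 11 tested carriers of nucleotides and cofactors, 1 was called higher, slc25a16, and 0 lower (3 and 1 at an unadjusted p under 0.05, 1 and 0 in DESeq2), a share near the 9.43% of all tested genes called higher. The NAD carrier gene slc25a51b was at 17.2, 16.7 and 15.5 CPM at 24h against 11.03 and 13.4 CPM in Control. The coenzyme A carrier gene slc25a42 was at 47.5, 36.5 and 39.9 CPM at 24h against 33.6 and 31.1 CPM in Control. Both had groups that did not overlap and neither was called (adjusted p of 0.10 and 0.13 in edgeR). The pyrimidine nucleotide carrier gene slc25a33, at 41.6, 37.7 and 35.8 CPM at 24h against 56.5 and 36.0 CPM in Control, had its highest value in Control replicate 1, and without that library its log2 fold change turned from -0.27 to 0.0896. Its relatives slc25a36a and slc25a36b were not called (0.23 and 0.02), nor were slc25a26, of S-adenosylmethionine (0.32), and slc25a17, a peroxisomal carrier (0.10).

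Of the 4 iron and glutathione carriers none was called in edgeR (1 higher and 0 lower at an unadjusted p under 0.05, 1 and 0 in DESeq2). The glutathione carrier gene slc25a40 was at 3.77, 3.94 and 5.52 CPM at 24h against 2.53 and 2.11 CPM in Control, a log2 difference of 0.91 ± 0.29 (SE) whose adjusted p was 0.059 in edgeR and 0.046 in DESeq2. It overlaps cldn12, 73.4% of its reads were unique, and with unique reads its log2 fold change was 0.58 (adjusted p = 0.224). The related gene slc25a39 was not called (0.35 ± 0.24 (SE)). The mitoferrin gene slc25a28, which supplies iron in most tissues, was at 40.3, 39.2 and 35.8 CPM at 24h against 43.1 and 44.6 CPM in Control. The other mitoferrin gene, slc25a37, which is needed for haem in zebrafish red cells, was at 0.587, 1.101 and 0.714 CPM at 24h against 1.11 and 1.45 CPM in Control, and neither mitoferrin was called. Red cell markers were lower in the 24h libraries in 3 of 6 tested genes, with a summed level of 16.0 to 34.8 CPM against 71.5 to 71.9 CPM, and no marker in the tables was without reads. Their part in the level of slc25a37 was not tested, and in whole fins fewer cells of a type and less RNA per cell cannot be told apart.

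The remaining 7 carriers include slc25a14 and slc25a27, relatives of the uncoupling proteins, and slc25a46, an outer membrane protein that shapes mitochondria. None of these was called (0.24, 0.14 and 0.43), nor was slc25a35 (0.05). The gene slc25a47a, a liver carrier in mammals, was at 2.01, 4.87 and 2.27 CPM at 24h against 5.44 and 7.05 CPM in Control. All 24h values lay below the Control values, 24h replicate 2 the closest, and it was not called (log2 fold change -1.01 ± 0.40 (SE), adjusted p = 0.11); it was called without 24h replicate 2 (-1.54, adjusted p = 0.019) and with exon reads (-1.20, adjusted p = 0.047). The 7 carriers that did not pass the filter were slc25a4, slc25a6, slc25a13, slc25a23b, slc25a24l, slc25a38a and slc25a51a, each with at most 13 reads in any library.

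Many of these genes come in pairs named a and b, of which 12 were compared. In 6 of these pairs 1 gene, here called a copy, held over 90% of the pair's TPM in every library. Whether each pair is a zebrafish duplicate was not examined. The folate and FAD carrier copies were among the exceptions: slc25a32b had 65.8% to 72.9% of the pair's TPM at 24h against 47.2% to 50.1% in Control. Its level was 4.94, 6.73 and 6.10 CPM at 24h against 4.70 and 3.30 CPM in Control. That of slc25a32a was 5.53, 8.89 and 7.40 CPM at 24h against 12.04 and 11.1 CPM in Control. One copy was thus higher and the other lower in every 24h library, yet neither was called (0.56 ± 0.26 (SE) and -0.67 ± 0.23 (SE)). For the citrate carriers, slc25a1b had 43.4% to 55.1% at 24h against 56.2% to 70.6% in Control. For the ornithine carriers, slc25a15a held 78.6% to 88.1% against 65.5% to 68.8%. The pairs were singled out after their values were seen and the shifts in share were not tested.

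**Figure D4:**
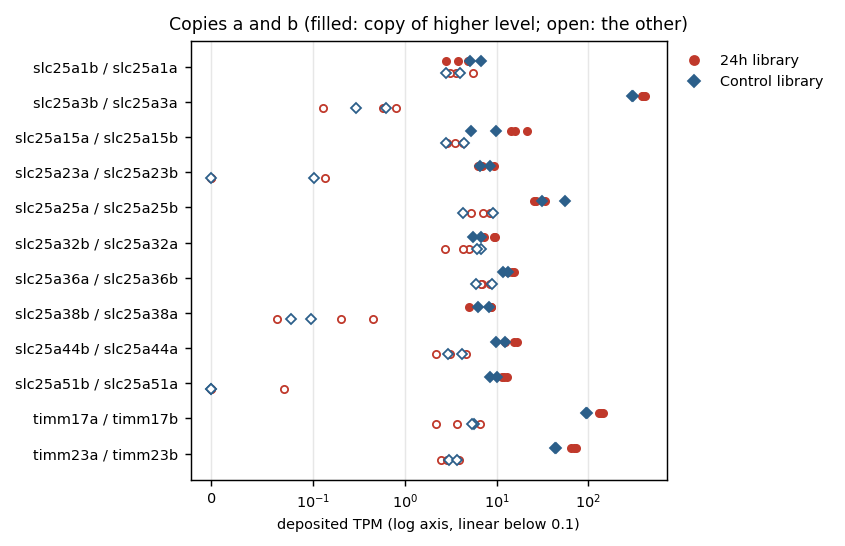
Deposited TPM of both copies of 12 gene pairs in each library, on a log axis that is linear below 0.1; filled symbols are the copy with the higher mean level, open symbols the other, circles 24h and diamonds Control. In the slc25a3, slc25a23, slc25a38, slc25a51, timm17 and timm23 pairs the copies are separated by a wide gap in every library.

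Further genes of the pathway were read from lists of import partners. Of 17 tested genes of the disulfide relay, processing peptidases, insertases, inner membrane proteases and prohibitins, 6 were called higher and 0 lower (7 and 0 at an unadjusted p under 0.05, 6 and 0 in DESeq2). Their median log2 difference was 0.33, and 35.3% were called higher, beside 9.43% of all tested genes. The called genes included pmpca (0.52 ± 0.11 (SE)), of the peptidase that removes presequences, and phb2a (0.53 ± 0.12 (SE)), of the prohibitin ring. All called ones were of the processing peptidases, prohibitins and insertases. No tested gene of the disulfide relay or the inner membrane proteases was called. For the relay only gfer and aifm1 were tested, since the listed chchd4a and chchd4b were not found under these names. Of 14 tested genes of the import motor and matrix chaperones, 2 were called higher and 0 lower (4 and 0 at an unadjusted p under 0.05, 2 and 0 in DESeq2), with a median of 0.24. The share called higher, 14.3%, was near the 9.43% of all tested genes. The called genes were hspd1 (0.60 ± 0.13 (SE)), of the chaperonin that folds imported proteins, and trap1 (0.48 ± 0.12 (SE)), a matrix Hsp90. The motor gene hspa9 itself was at 236, 278 and 276 CPM at 24h against 231 and 230.4 CPM in Control and was not called (adjusted p = 0.32). Of 14 tested genes of the sorting complex and the cristae organising complex, 3 (21.4%) were called higher and 0 lower (4 and 1 at an unadjusted p under 0.05, 3 and 0 in DESeq2), with a median of 0.0097. They included mtx2 (0.68 ± 0.14 (SE)) and samm50 (0.47 ± 0.13 (SE)), which insert outer membrane barrels. In limma on TPM with either pseudocount samm50 and trap1 were not called. Without Control replicate 1 or without Control replicate 2 none of the 6 partner genes named by the naming rule was called (adjusted p of 0.0955 to 0.228 and 0.0608 to 0.14); samm50 also lost the call without 24h replicate 1, and samm50, trap1 and phb2a without 24h replicate 2.

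A few import and carrier genes carry other names in the deposited tables and stand outside the naming rule. The carrier translocase gene TIMM22, which inserts the SLC25 proteins into the inner membrane, was at 9.20, 13.3 and 10.3 CPM at 24h against 5.38 and 5.14 CPM in Control. Every 24h library was higher, by 1.05 ± 0.23 (SE) in log2 (adjusted p = 0.016), or adjusted p = 0.104 without Control replicate 1 and 0.098 without Control replicate 2. The gene zgc:92113, listed as slc25a55b in the table of gene names, was at 1.81, 2.50 and 1.62 CPM at 24h against 5.59 and 5.08 CPM in Control and was called lower by -1.42 ± 0.28 (SE), with an adjusted p of 0.095 and 0.057 without the one and the other Control library. TIMM22 and zgc:92113 were singled out after their values were seen, and the other tested genes outside the rule were not called. Of the import genes, these were TIMM21 (0.02), zgc:110046, listed as TIMM29 (0.40), and arid4b_1, listed as tomm20a (0.46). Their adjusted p in edgeR was 0.96, 0.37 and 0.078. Of the carriers, they were SLC25A34 (0.57) and further genes named after SLC25A5 (0.19) and SLC25A22 (-0.32).

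Of 23 tested transporter genes outside the family, 3 were called higher and 3 lower, the median difference being -0.18 in log2; these shares are near the 9.43% and 14.8% over all tested genes. The gene micu3a, which in mammals enhances mitochondrial calcium uptake, was at 33.1, 28.7 and 30.1 CPM at 24h against 5.49 and 5.41 CPM in Control. It was called in all alternatives, at 2.49 ± 0.16 (SE) on the log2 scale. Among relatives of the carriers that bear other names, mtch2 (0.46 ± 0.12 (SE)), of an outer membrane insertase, was called higher, but not without Control replicate 1 (adjusted p = 0.137), Control replicate 2 (0.192) or 24h replicate 2 (0.087). The uncoupling protein gene ucp3 was lower, with 0, 7 and 1 reads in the 24h and 98 and 23 in the Control libraries, and its fitted log2 fold change of -4.61 was -3.48 and not called without Control replicate 1 (adjusted p = 0.106), and -6.58 without 24h replicate 2. The abundant ucp2 was at 795, 457 and 480.2 CPM at 24h against 560.4 and 550.3 CPM in Control, with overlapping groups. The genes ucp2 and ucp3 overlap on the same strand, and 75.9% and 62.8% of their reads were unique. With at least 50 reads in 2 libraries required, ucp3 was not tested. In limma on TPM with either pseudocount mtch2 was not called.

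Transcripts of the mitochondrial genome did not differ to a degree the test could call. Of the 13 protein genes 0 were called in either direction by edgeR, 0 had an unadjusted p under 0.05 and DESeq2 called 0; their median log2 difference was 0.075. The 2 with the smallest p were mt-nd4 (0.28 ± 0.14 (SE)) and mt-nd1 (0.24 ± 0.14 (SE)). Of 13 tested regulators of mitochondrial biogenesis, 2 (15.4%) were called higher and 1 (7.69%) lower, beside 9.43% and 14.8% of all tested genes. The higher ones were the mitochondrial transcription factor genes tfb1m (0.70 ± 0.16 (SE)) and tfb2m (0.75 ± 0.21 (SE)). Of these, tfb1m was not called with exon reads (0.33, adjusted p = 0.384) or in limma on TPM with either pseudocount. Neither was called without Control replicate 1 (adjusted p of 0.123 and 0.269) or without 24h replicate 2 (0.069 and 0.094), tfb1m not without Control replicate 2 (0.139) and tfb2m not without 24h replicate 1 (0.072). Of 15 cell cycle genes, 0 were called higher and 2 lower in edgeR (0 and 4 at an unadjusted p under 0.05, 0 and 2 in DESeq2). The share called lower, 13.3%, was near the 14.8% of all tested genes. The lower ones were the replication genes mcm4 (-0.86 ± 0.15 (SE)) and mcm6 (-0.75 ± 0.19 (SE)), and mcm6 was not called in limma on TPM with either pseudocount. Without Control replicate 1 neither was called (adjusted p of 0.067 and 0.185), and mcm6 lost the call without any 1 of the libraries other than 24h replicate 2.

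Marker transcripts of several cell types differed between the same groups, in which 9.43% of all tested genes were called higher and 14.8% lower. Markers of connective tissue were lower in the 24h libraries in 9 of 9 tested genes, with sums of 7194 to 9643 CPM against 37342 to 37628 CPM. Those of osteoblasts were lower in 7 of 10, with sums of 164 to 217 CPM against 11396 to 11606 CPM. Most of that Control sum was col10a1a, at 9.78, 22.2 and 52.3 CPM at 24h against 10802 and 10588 CPM in Control. The osteoblast markers not called were runx2a (0.43), runx2b (-0.36) and spp1 (-0.56). The melanophore markers were lower in 7 of 7, with 3.62 to 6.56 CPM against 198 to 217 CPM, and the endothelial ones in 7 of 9, with 36.8 to 43.0 CPM against 298 to 313 CPM. Macrophage and neutrophil markers were lower in 4 of 10 tested genes, with sums of 379 to 499 CPM against 595 to 633 CPM. Epidermal markers were higher in 6 and lower in 3 of 12, and those of ionocytes higher in 1 of 6, with sums of 948 to 1438 CPM against 689 to 975 CPM. The ionocyte sums overlapped between the groups and were mostly ca2 and atp1a1a.1, which were not called. The called ionocyte marker was atp6v1aa (0.54), and foxi3a, foxi3b and slc12a10.2 did not pass the filter. No marker of these lists in the tables was without reads in all libraries. Their part in the higher import and the changed carrier transcripts was not tested.

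The small Control group limits these calls. Without Control replicate 1, 0 of the 15 import genes were called by edgeR (adjusted p of 0.0501 to 0.230), and without Control replicate 2 only timm10b was (0.036), while the median log2 fold change of import genes was 0.54 and 0.59. Without 24h replicate 2, 5 were called: timm10b, timm44, timm23a, tomm40l and tomm22. Without 24h replicate 1, 10 were called, beside 7.49% of all tested genes called higher. In limma on TPM with either pseudocount 11 of the 15 were called, and timm13, timm9, timm50 and tomm40 were not. With a pseudocount of 1 limma called 6.89% of all tested genes higher, and with 0.1 it called 6.9%. With at least 50 reads in 2 libraries required, tomm5 was not called. In the whole table the share called higher was 2.14%, 3.14% and 5.70% without Control replicate 1, Control replicate 2 and 24h replicate 2. Of the 5 called carriers, slc25a48 alone was called without Control replicate 1, and slc25a48 and slc25a15a without Control replicate 2. The call of slc25a15a was also lost without 24h replicate 1 (adjusted p = 0.058), that of slc25a43 without 24h replicate 2 (0.066), and that of slc25a16 without 24h replicate 2 (0.116), without 24h replicate 3 (0.071) and in limma on TPM (0.088). The log2 fold changes of the called carriers kept their sign in every alternative.

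**Figure D5:**
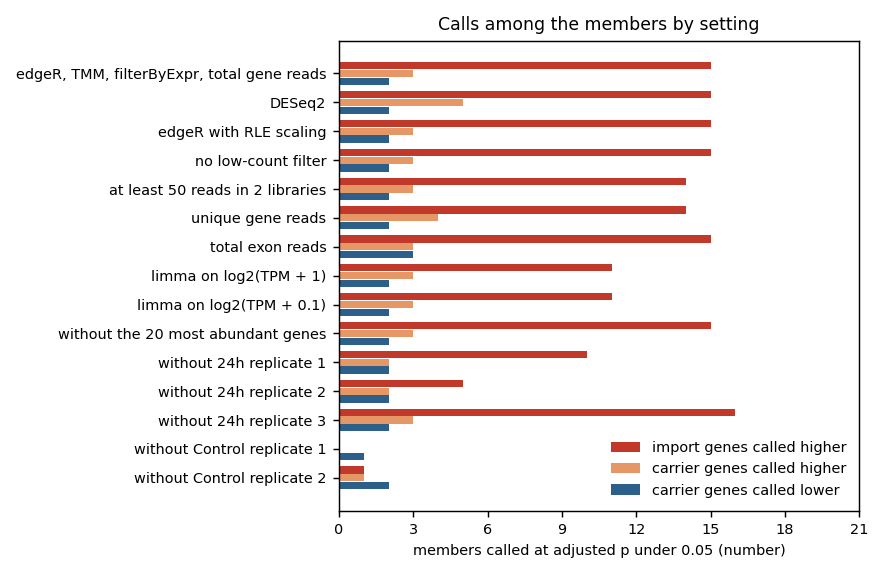
Number of import genes called higher and of carrier genes called higher or lower at an adjusted p under 0.05, for the reported fit (top) and each of the 14 alternatives. Counts of import genes stay between 10 and 16 except without 24h replicate 2 (5), without Control replicate 1 (0) and without Control replicate 2 (1).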

How the data were processed

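For each of the 5 libraries the authors deposited 31540 genes with, per the file headers, whole-number counts of total, unique, exon and intron reads per gene and the deposited TPM, which the authors scaled for exon length and library size. The build was GRCz10, per the submitters' processing notes; aligner, counter and strand setting: not given in the sources used. The deposited total gene reads (14958600 to 22341452 per library) were tested with edgeR 4.0.16 in R 4.3.3: filterByExpr, TMM, robust quasi-likelihood F test, Benjamini-Hochberg adjustment over 19034 genes, threshold 0.05, no covariate. The common biological coefficient of variation was 20.2%. Each SE is the absolute log2 fold change over the root of F. Alternatives used DESeq2 1.42.0, limma 3.58.1 and those listed in the closing section. The code was tested on simulated data.

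The members and gene lists were chosen with earlier results of these data known. Every member may be named. Values in every library are given for called import genes, the 3 import genes with the lowest fold change, called carriers whose mean log2 CPM reached 1 (up to 8 in each direction), ADP/ATP, phosphate and erythroid carriers and the 3 most abundant carriers, and other members, hspa9 and ucp2 were added as examples after their values were seen. Of each other list the 2 genes with the smallest p are named, and cell type markers were named after their values were seen. The labels give no batch, pairing or replicate numbers, and replicates are numbered in accession order. No sequence was used here. Results for 1 carrier gene and 1 transporter gene are not reported here singly; both are in the counts.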

Additional observations from a re-analysis of the deposited data

How the results depend on the processing

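With 2 Control libraries the calls depend on few values, and fits that leave 1 of them assume that the lone library varies like the others. Leaving out 1 library at a time gave 0 to 16 import genes called higher, 0 to 3 carriers higher, 1 to 2 carriers lower, and a median log2 fold change of carrier genes of 0.0982 to 0.195. DESeq2 called 5 carriers higher, beside 11.3% of all tested genes. The median log2 fold change of carrier genes was 0.159 without a low-count filter, 0.113 with at least 50 reads in 2 libraries, 0.168 with exon reads and 0.0898 in limma on log2(TPM + 1). The count of import genes called lower was 0 in edgeR, DESeq2 and limma under all alternatives. Among called members, none changed sign under any of the 14 alternatives.

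Of 899 member values under the alternatives, 783 kept their direction and side of the threshold, 67 lost and 10 gained a call, and 39 values of 16 uncalled members turned sign; the causes were not tested. With at least 50 reads in 2 libraries these were slc25a23a (-0.0310), slc25a15b (-0.0349), slc25a25b (-0.0237), tomm34 (-0.000140) and slc25a36b (-0.0173). In limma on log2(TPM + 1) they were slc25a23a (-0.0180), timm23b (-0.108) and slc25a21 (-0.00357), and with 0.1 in place of 1 slc25a23a (-0.0208), slc25a3a (-0.0486), timm23b (-0.142) and slc25a21 (-0.00378). Without the 20 most abundant genes slc25a15b (-0.00347) and with exon reads timm23b (-0.104) turned sign. Over the fits that leave out 1 library the log2 fold changes ran from -0.132 to 0.168 for slc25a23a, -0.0144 to 0.239 for slc25a17, -0.103 to 0.553 for slc25a3a, -0.263 to 0.328 for slc25a15b, -0.454 to 0.691 for slc25a25b, -0.356 to 0.704 for slc25a35, -0.128 to 0.337 for slc25a38b, -0.151 to 0.539 for slc25a22, -0.0832 to 0.141 for tomm34, -0.0492 to 0.315 for timm23b, -0.203 to 0.310 for slc25a36b, -0.00584 to 0.602 for slc25a21, -0.161 to 0.227 for slc25a24, -0.155 to 0.569 for slc25a27, -0.546 to 0.0896 for slc25a33 and -0.254 to 0.0140 for slc25a44a. No paired analysis was possible because the labels carry no numbering that links 24h and Control libraries.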
